A study of Mus musculus with 4 samples.

Results

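AP-1 is a family of transcription factors that bind DNA as pairs of basic leucine zipper (bZIP) proteins, and 8 of its genes are described here in single mesenchymal progenitor cells (MPC): Fos, Fosb, Fosl1, Fosl2, Jun, Junb, Jund and Atf3. They were taken by name from the 32285 genes in the count matrices, and all 8 were detected in every library. The set and the questions put to it (level, share of cells, co-detection and which members differ from the rest) were selected on measured values of these same 4 libraries, so the levels below are a description. Proteins of the Fos group pair with a Jun protein, whereas Jun proteins also pair with each other. Fos, Fosb, Jun, Junb and Atf3 are early response genes, whose short-lived mRNAs are made within minutes of growth factor, adhesion or stress signals, and Fosl1 and Fosl2 encode the Fos-related antigens Fra-1 and Fra-2, which follow later and are known for roles in migrating cells and in bone. Jund is the most constantly expressed Jun gene in many cell types, and Atf3 responds to amino acid shortage and protein folding stress.

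The cells were C3H 10T1/2, a mouse embryonic line of MPC that carried a tagged human histone H3 from a puromycin-selected lentivirus, either wild type (H3WT) or with arginine 26 changed to cysteine (H3R26C). Each genotype was given vehicle (DMSO) or 5-Azacitidine (5-Aza), an inhibitor of DNA methyltransferases used at 3 µM for 24 h that lets these cells differentiate into several mesenchymal lineages, and treated cells were harvested at day 28 of differentiation. No such day is stated for the DMSO cells, so treatment and time in culture cannot be told apart. Every condition was dissociated with TrypLE, passed through a strainer and made into 1 library of 10X Genomics droplets. No difference between conditions therefore has a replicate check, and none was tested. Any part of this handling in the levels of early response genes was not tested and cannot be told apart from genotype or treatment. Intervals in brackets are 95% limits for counting error only, exact for levels and shares and approximate for log2 ratios.

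Barcodes with at least 5000 unique molecular identifiers (UMIs, 1 for each captured RNA molecule), at least 1500 genes and at most 20% mitochondrial UMIs were kept, which left 22049 of 39891 barcodes (3710 to 7619 cells per library, 84060490 to 110712425 UMIs). The median cell held 22420 UMIs in H3WT with DMSO and 13123 to 16598 in the other libraries, and the median mitochondrial share was 3.86% there against 2.55% to 2.87%. At least 3 of 8 mesenchymal markers were found in 98.4% to 99.8% of the cells of each library, and 3 of 5 endothelial or blood markers in 0 cells. Barcode sequences shared between libraries numbered 24 to 58 per pair, in 488 cells. The vector's histone was not checked, since the counts were made on the mouse genome.

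The genes lie on 7 chromosomes of GRCm38 (GENCODE M21). Fos is at chr12:85473890-85477273, Fosb at chr7:19302696-19310051, Fosl1 at chr19:5447547-5455946, Fosl2 at chr5:32135801-32157842, Jun at chr4:95049034-95052222, Junb at chr8:84974484-84978718, Jund at chr8:70698949-70700616 and Atf3 at chr1:191170296-191218039. The 3 Jun genes have 1 exon each and the longest transcripts of the other 5 have 4. A gene on the opposite strand overlaps Fosl1 (Ccdc85b), Jun (Junos), Junb (Prdx2), Jund (Gm11175) and Atf3 (Gm24748), while Fos, Fosb and Fosl2 overlap none.

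The 120 bases before the RefSeq start are shown for Fos, Fosb and Junb, the members at least 2-fold lower with 5-Aza in H3R26C, and for Jun, which differed least there among the genes whose RefSeq and GENCODE starts lie within 30 bases of each other. Capitals mark TGACG, which opens the cAMP response element, and in Fos the TATA box TATAAA.
Fos, chr12:85473770-85473889, plus strand: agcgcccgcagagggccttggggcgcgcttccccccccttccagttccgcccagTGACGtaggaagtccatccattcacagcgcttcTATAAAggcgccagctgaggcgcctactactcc
Fosb, chr7:19310046-19310165, minus strand: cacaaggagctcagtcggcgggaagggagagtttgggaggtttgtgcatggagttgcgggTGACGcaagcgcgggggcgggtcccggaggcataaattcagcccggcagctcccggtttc
Junb, chr8:84978749-84978868, minus strand: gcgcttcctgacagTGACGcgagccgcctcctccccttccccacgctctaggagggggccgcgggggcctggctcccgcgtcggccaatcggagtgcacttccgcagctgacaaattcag
Jun, chr4:95052223-95052342, minus strand: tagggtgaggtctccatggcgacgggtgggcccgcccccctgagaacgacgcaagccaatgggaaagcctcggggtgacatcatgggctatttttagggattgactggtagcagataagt

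TGACG was searched on both strands in the 250 bases before each RefSeq start (GRCm38.p6) and occurs there in 19.8% of 27025 genes. Among the 7 members with an entry, Fos holds it at -129 and -66 from the start, Fosb at -60, Junb at -106 and Atf3 at -7 on the other strand, whereas Fosl2, Jun and Jund hold no exact match in this window. Near matches were not searched, and the Jun bases shown above include tgacatca, which differs from TGACGTCA at a single base. The Fos and Fosb copies at -66 and -60 sit at nearly the same distance from the start. TATAAA occurs in Fos alone, at -33 (14.3% of genes). The AP-1 site TGACTCA (5.16% of genes), the full element TGACGTCA (1.77%, which contains TGACG) and the CArG box of serum response factor (1.62%) occur in none of the 7 windows. Bases further upstream were not searched, so a CArG box there would not have been seen. The RefSeq starts of Fosl2, Jund and Atf3 are 671, 1210 and 34706 bases from the GENCODE start of the gene, so for these members the window describes another start.

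AU-rich elements in the 3′ untranslated region are known to shorten the life of early response mRNAs. The nonamer TTATTTATT occurs in 2 members, Fos and Fosl2, against 7.72% of 20549 genes. It is shown in capitals because Fos differed among the most and Fosl2 among the least of the 8 between these libraries.
Fos, base 655 of the untranslated region: ttttcaatTTATTTATTaagatgga
Fosl2, base 3692 of the untranslated region: ttattttaTTATTTATTttaaatgt
The pentamer ATTTA, which the nonamer contains, is most frequent per 1000 bases in Fos (4.91), Junb (4.12) and Jun (3.24), followed by Atf3 (2.53), Jund (1.88), Fosl2 (1.72) and Fosl1 (1.57). Fosb (0.466) lies below the median of all genes (1.27).

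Levels are given in CPM, the UMIs of a gene per 1000000 UMIs of the library, where a molecule counts once whatever its length. The 8 members together made up 3818 CPM in H3WT with DMSO, 2846 in H3WT with 5-Aza, 2121 in H3R26C with DMSO and 1184 in H3R26C with 5-Aza. Relative to their level, Fos and Fosb spanned the widest range over the libraries, whereas in CPM Jund and Fos did. Fosl1 differed from Fos in direction in every comparison over all cells, and Fosl2 was close to level between the genotypes after 5-Aza.

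**Figure D1:**
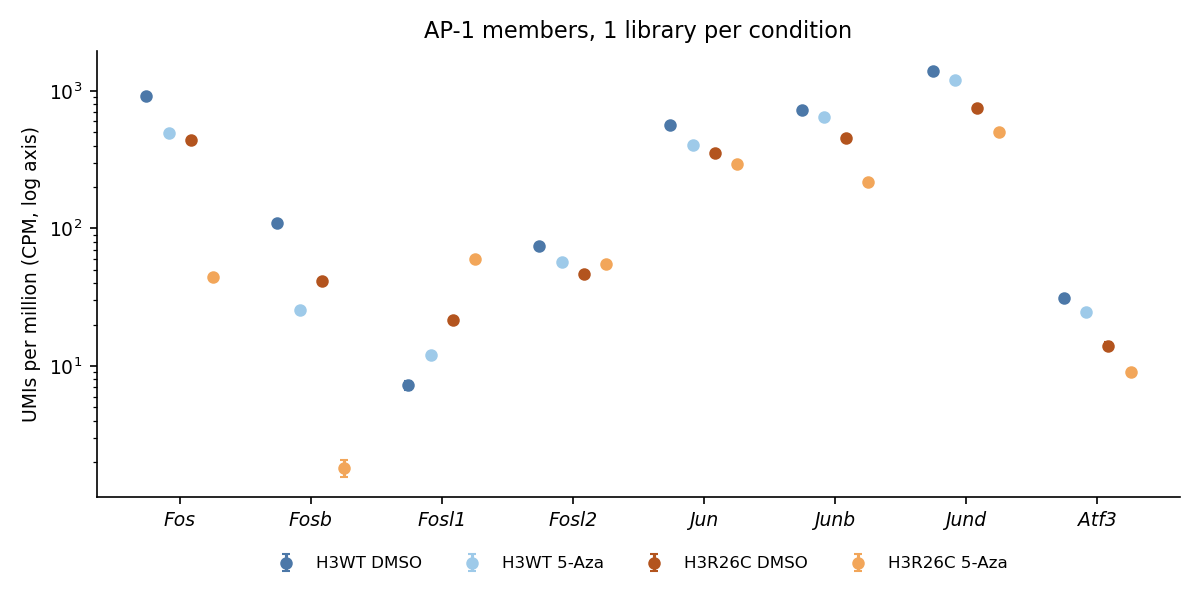
Level of each AP-1 member in the 4 libraries, in CPM on a log axis, with exact 95% counting intervals that are mostly smaller than the points. Fos spans 44.7 to 921 CPM and Fosb 1.82 to 110.04 CPM, both lowest in H3R26C with 5-Aza, where Fosl1 is highest at 59.8 CPM.

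Fos, the founding member of the family and a textbook immediate early gene, stood at 921 CPM [914 to 927] in H3WT with DMSO and 494 CPM [489 to 498] in H3WT with 5-Aza. It stood at 438 CPM [434 to 443] in H3R26C with DMSO and 44.7 CPM [43.5 to 46.0] in H3R26C with 5-Aza. H3WT with 5-Aza and H3R26C with DMSO were thus close, and H3R26C with 5-Aza was far below every other library. Fos was 1.86-fold lower with 5-Aza in H3WT and 9.79-fold lower in H3R26C, and it was 2.10-fold lower in H3R26C than in H3WT with DMSO and 11.0-fold lower with 5-Aza.

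Fosb, the closest relative of Fos in the early response, ran in the same direction with larger ratios for 5-Aza. Its level was 110.04 CPM [107.8 to 112.3] in H3WT with DMSO, 25.8 CPM [24.7 to 26.9] in H3WT with 5-Aza, 41.3 CPM [39.9 to 42.7] in H3R26C with DMSO and 1.82 CPM [1.57 to 2.09] in H3R26C with 5-Aza. That last value rests on 201 UMIs among 7619 cells. Unlike Fos, Fosb was lower in H3WT with 5-Aza than in H3R26C with DMSO. The ratio for 5-Aza was 4.27-fold in H3WT and 22.7-fold in H3R26C, both towards DMSO.

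Fosl1 encodes Fra-1, which lacks the strong activation domain of Fos. Its order of libraries was the reverse of that of Fos. The level was 7.24 CPM [6.69 to 7.83] in H3WT with DMSO, 12.0 CPM [11.2 to 12.7] in H3WT with 5-Aza, 21.5 CPM [20.5 to 22.5] in H3R26C with DMSO and 59.8 CPM [58.4 to 61.3] in H3R26C with 5-Aza. The counting intervals of the 4 libraries do not overlap. Fosl1 was 1.65-fold higher with 5-Aza in H3WT and 2.79-fold higher in H3R26C, and 2.97-fold and 5.01-fold higher in H3R26C than in H3WT with DMSO and 5-Aza.

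Fosl2, which encodes Fra-2, covered the narrowest range of the Fos family. It stood at 74.7 CPM [72.9 to 76.6] in H3WT with DMSO, 56.8 CPM [55.2 to 58.4] in H3WT with 5-Aza, 46.4 CPM [45.0 to 47.9] in H3R26C with DMSO and 55.6 CPM [54.2 to 57.0] in H3R26C with 5-Aza. With 5-Aza the genotypes overlapped within counting error, a pair of neighbours that no other member showed. Over all cells its ratio for 5-Aza had opposite directions, 1.32-fold lower in H3WT and 1.20-fold higher in H3R26C.

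Jun, the founding Jun gene and a target of the JNK kinases at the protein level, differed less than the other Jun genes after 5-Aza in H3R26C. Its level was 567 CPM in H3WT with DMSO, 401 CPM in H3WT with 5-Aza, 354 CPM in H3R26C with DMSO and 296 CPM in H3R26C with 5-Aza. The ratio for 5-Aza was 1.41-fold in H3WT and 1.20-fold in H3R26C, both towards DMSO, so Jun was the only lower member whose ratio for 5-Aza was smaller in H3R26C.

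Junb, a weaker activator that is induced together with Fos, stood at 722 CPM in H3WT with DMSO and 642 CPM in H3WT with 5-Aza, a ratio of 1.12-fold. In H3R26C it stood at 453 CPM with DMSO and 216 CPM with 5-Aza, a ratio of 2.10-fold. Jund, the gene least tied to signals, stood at 1385 CPM and 1189 CPM in H3WT and at 751 CPM and 501 CPM in H3R26C, with DMSO and 5-Aza. Jund thus followed genotype more than treatment: it was 1.84-fold lower in H3R26C with DMSO and 2.38-fold lower with 5-Aza, against 1.16-fold and 1.501-fold lower with 5-Aza in H3WT and H3R26C.

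Atf3, a bZIP factor of the ATF group that pairs with Jun proteins, stood at 31.3 CPM [30.1 to 32.5] in H3WT with DMSO, 24.7 CPM [23.6 to 25.8] in H3WT with 5-Aza, 14.0 CPM [13.2 to 14.9] in H3R26C with DMSO and 9.01 CPM [8.45 to 9.58] in H3R26C with 5-Aza. Like Jund it differed more between genotypes (2.23-fold and 2.74-fold) than between treatments (1.27-fold and 1.56-fold).

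On the scale of log2(CPM + 1), with a gene counted as different past 2-fold and a minimum of 1 CPM in the higher library, 1 of 8 members (Fosb) was lower with 5-Aza in H3WT, where 0.269% of 12622 genes were, and 0 were higher, against 4.88% of genes. With 5-Aza in H3R26C, 3 members (Fos, Fosb and Junb) were lower, against 3.02% of 12974 genes, and 1 (Fosl1) was higher, against 9.09%. In H3R26C against H3WT with DMSO, 3 members (Fos, Fosb and Atf3) were lower, against 0.588% of 12250 genes, and 1 (Fosl1) higher, against 1.91%. With 5-Aza, 5 members (Fos, Fosb, Junb, Jund and Atf3) were lower in H3R26C, against 2.61% of 13010 genes, and 1 (Fosl1) higher, against 5.03%. These counts come from the contrasts on which the members were selected, so nothing is read from them.

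The median log2 ratio of the members was -0.36 and -0.59 for 5-Aza in H3WT and H3R26C, and -0.78 and -1.30 for H3R26C with DMSO and 5-Aza, while the medians of all genes lay between -0.02 and 0.04. Just inside the 2-fold limit were Junb for 5-Aza in H3R26C (-1.07) and Fos for H3R26C with DMSO (-1.07). Just outside it were Fos for 5-Aza in H3WT (-0.90) and Jund for H3R26C with DMSO (-0.88). The comparisons share libraries in pairs, so they are not independent of each other.

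**Figure D2:**
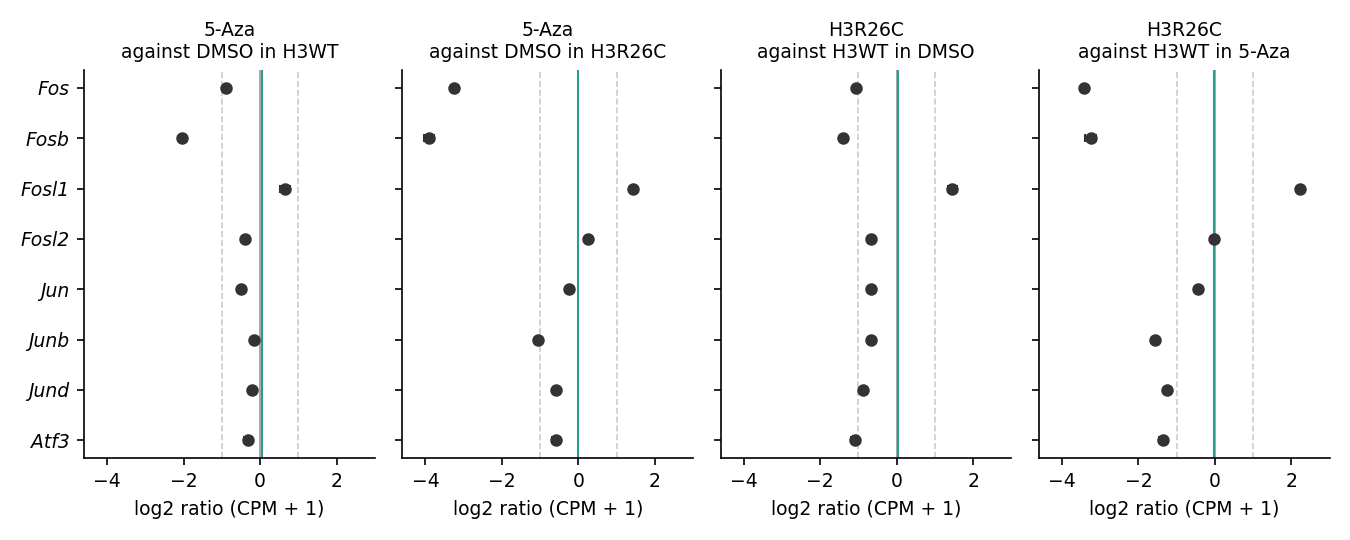
Log2 ratio of each member in the 4 comparisons, on the scale of CPM + 1, with 95% counting intervals. Dashed lines mark 2-fold and the green line the median of all genes, which is near 0 in each panel. Fosl1 lies to the right of 0 in all panels. Fos and Fosb lie furthest left in all but H3R26C against H3WT with DMSO, where Atf3 (-1.10) lies left of Fos (-1.07).

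The 5-Aza ratios of the genotypes were also subtracted, which uses all 4 libraries once. On the log2 scale the ratio in H3R26C minus that in H3WT was -2.37 [-2.41 to -2.32] for Fos, -1.86 [-2.01 to -1.70] for Fosb, -0.90 for Junb, -0.37 for Jund and -0.26 [-0.39 to -0.12] for Atf3. It was positive for Jun (0.24), Fosl2 (0.65) and Fosl1 (0.78), and the median over all genes was -0.08. The intervals cover counting error, and the differences themselves were not tested because each condition has 1 library. Fosb stood at 1.82 CPM in H3R26C with 5-Aza, where the pseudocount of 1 CPM pulls its ratio towards 0. Over the alternative settings its log2 ratio for 5-Aza in H3R26C ran from -4.43 to -2.76. Fos and Fosb can therefore not be ranked by these differences.

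The make-up of the Fos family differed with these levels. Fos supplied 82.7% of the family's UMIs in H3WT with DMSO, 83.9% in H3WT with 5-Aza and 80.1% in H3R26C with DMSO, but 27.6% [27.0 to 28.3] in H3R26C with 5-Aza. In that library Fosl1 supplied 36.9% [36.2 to 37.7] and Fosl2 34.3% [33.6 to 35.0], against 0.651% to 3.92% and 6.72% to 9.65% in the others. The family total differed as well, at 1113, 588, 548 and 162 CPM, so the larger share of Fosl2 in H3R26C with 5-Aza stood beside a level that did not exceed H3WT. Fosb supplied 9.89%, 4.38%, 7.54% and 1.12% in the same order.

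The Jun family kept its order more closely. Jund supplied 51.8%, 53.3%, 48.2% and 49.4% of family UMIs in H3WT with DMSO, H3WT with 5-Aza, H3R26C with DMSO and H3R26C with 5-Aza. Junb supplied 27.0%, 28.8% and 29.1% in the first 3 and 21.3% in H3R26C with 5-Aza, where Jun took 29.2% against 17.96% to 22.7% elsewhere. The family totals were 2674, 2233, 1559 and 1013 CPM.

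**Figure D3:**
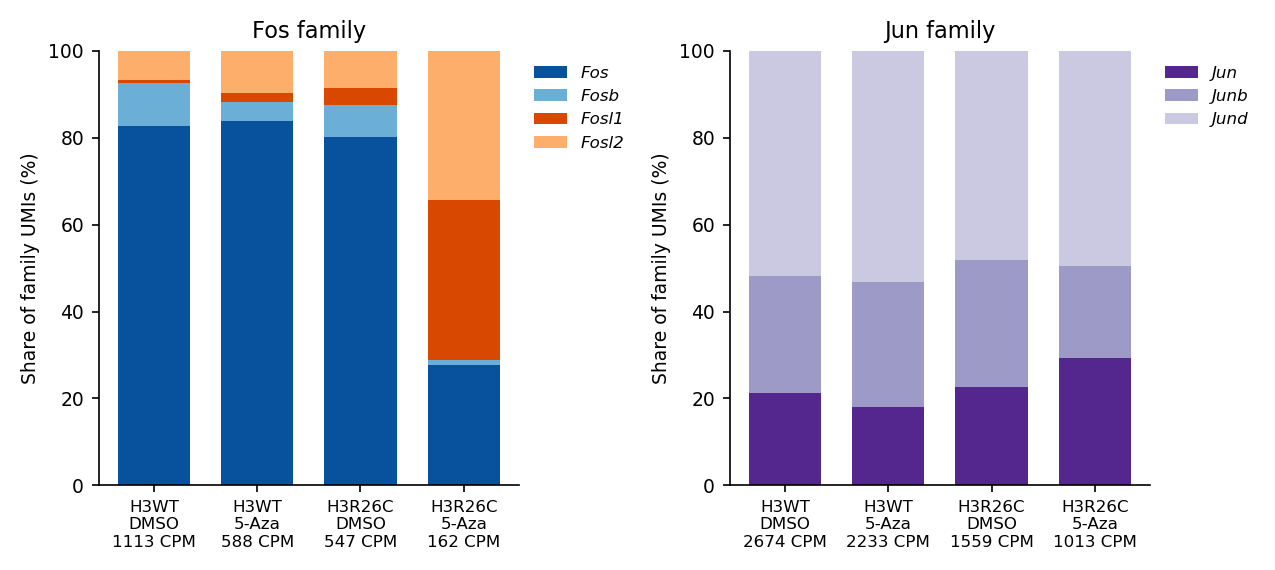
Share of the UMIs of the Fos family (left) and the Jun family (right) that each gene supplied in each library, in percent, with the family's total in CPM under each bar. Fos supplies 80.1% to 83.9% of its family in 3 libraries and 27.6% in H3R26C with 5-Aza, while Jund supplies 48.2% to 53.3% of its family throughout.

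Shares of cells were taken after every cell was thinned at random to 5000 UMIs, because the libraries differ in depth. Fos was found in 79.1% of cells of H3WT with DMSO, 57.7% of H3WT with 5-Aza, 58.4% of H3R26C with DMSO and 13.2% of H3R26C with 5-Aza. The unthinned shares were 90.9%, 71.1%, 74.6% and 23.4%. The level among cells with Fos was lower as well, with a mean of 6.26, 4.55, 4.10 and 1.89 thinned UMIs per positive cell. The few cells with 5 or more Fos UMIs made up 0.932% of H3R26C with 5-Aza, against 41.5%, 20.8% and 18.4% in the other libraries.

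Fosb was found in 33.8%, 10.6%, 15.7% and 1.05% of thinned cells in the same order of libraries (60.0%, 20.04%, 29.9% and 2.13% unthinned). Fosl1 was found in 1.94% and 3.003% of H3WT cells and in 5.84% and 16.8% of H3R26C cells (6.79%, 7.09%, 13.4% and 31.0% unthinned). Fosl1 was therefore the rarest member by cells in H3WT, and in H3R26C with 5-Aza more cells held it than held Fos. Fosl2 was found in 29.8%, 23.3%, 20.1% and 23.2% of cells, with 1.23 to 1.28 UMIs per positive cell in every library.

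Jund was the member found in most cells, with 98.0%, 95.8%, 90.2% and 82.4%. Jun was found in 78.1%, 72.2%, 70.5% and 67.0%, and Junb in 79.6%, 73.8%, 65.9% and 47.9%. Atf3 was found in 11.4%, 7.79%, 5.31% and 2.95%. No class of cells in these libraries is known to lack the AP-1 genes, so a share due to free RNA in the droplets could not be set beside these values.

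Cells of 1 library differed widely in Fos. In H3WT with DMSO the median cell had 718 CPM of Fos, the 10th percentile 33.6 CPM and the 90th 2299 CPM. The median was 218 CPM in H3WT with 5-Aza, 217 CPM in H3R26C with DMSO and 0 in H3R26C with 5-Aza. In that last library the tenth of cells with the highest Fos CPM held 78.2% of its CPM summed over cells, against 31.9% to 44.4% elsewhere. The variance of thinned counts over their mean, which is 1 for counting error alone, was 5.58, 5.92, 5.36 and 3.06 for Fos and 4.69, 4.93, 4.65 and 3.18 for Junb. The 90th percentile of this variance over mean, taken over genes with a mean of at least 0.1 UMIs, was 1.31 to 1.67. It was 1.15 to 1.28 for Fosl2 and 2.03 to 2.91 for Jund. This measure also rises with a gene's mean, which was 0.247 to 0.379 thinned UMIs for Fosl2 and 2.51 to 7.17 for Jund. The members can therefore not be ranked by their spread between cells from these values.

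The number of members found per thinned cell averaged 4.12 in H3WT with DMSO, 3.44 in H3WT with 5-Aza, 3.32 in H3R26C with DMSO and 2.54 in H3R26C with 5-Aza. At least 4 members were found in 70.7% [69.2 to 72.2], 51.6% [50.3 to 52.9], 46.5% [45.1 to 48.0] and 19.4% [18.6 to 20.3] of cells. The order of the libraries was the same at 3000 UMIs per cell, and without thinning H3R26C with DMSO (79.5%) stood above H3WT with 5-Aza (77.2%). None of the 8 was found in 0.296% to 2.61% of cells. No cell of the 22049 held all 8, and in the smallest library the exact upper limit for that count of 0 was a share of 0.0994%.

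**Figure D4:**
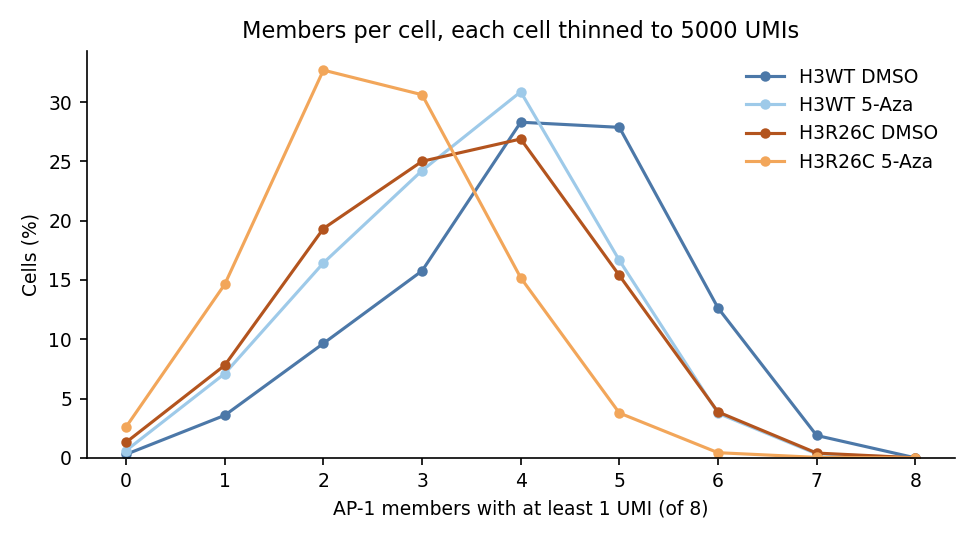
Percent of cells by the number of AP-1 members with at least 1 UMI, after thinning each cell to 5000 UMIs. The most common number is 4 in 3 libraries and 2 in H3R26C with 5-Aza, where 32.7% of cells hold 2 members.

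Some members were found in the same cells more often than the product of their shares. For Fos and Fosb the ratio of observed to expected cells with both was 1.23, 1.59, 1.58 and 3.41 in H3WT with DMSO, H3WT with 5-Aza, H3R26C with DMSO and H3R26C with 5-Aza, the last from 36 cells [2.39 to 4.72]. Such a ratio has a lower ceiling where a member is found in more cells, so its size cannot be compared between libraries. The Pearson correlation of their thinned levels across cells was 0.49, 0.36, 0.42 and 0.14 in the same order, lowest where the ratio was highest. In H3WT with DMSO, 41.5% of cells with Fos held Fosb, against 4.51% of cells without Fos. In H3R26C with 5-Aza these shares were 3.59% and 0.665%.

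Fos and Junb gave 1.10, 1.21, 1.25 and 1.61, and their thinned levels had a Pearson correlation across the cells of a library of 0.61 (n = 3710), 0.64 (n = 5993), 0.62 (n = 4727) and 0.37 (n = 7619). These cells share a library, and genes of a library are not independent. In H3R26C with 5-Aza, 77.3% of the 1004 cells with Fos held Junb, against 43.4% of the others, so the pair was still found together where both were low. Jund was in so many cells that its ratios lay between 1.004 and 1.07 with Fos, Jun and Junb.

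Fosl1 did not follow Fos within a library. Its ratio with Fos was 0.825 [0.607 to 1.10], 0.616 [0.475 to 0.785], 0.726 [0.602 to 0.868] and 0.713 [0.592 to 0.851], and that with Fosl2 was 0.700, 0.597, 0.522 and 0.869. In H3R26C with DMSO, 4.24% of cells with Fos held Fosl1, against 8.08% of cells without Fos. With Jun, by contrast, Fosl1 gave 0.978 to 1.14. Fosl2 was close to independent of Jun, with 0.987 to 1.05.

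Cells were also grouped by markers, with at least 3 UMI-positive genes of a list after thinning, to see where each member was found. The cycling list marked 4.42% (DMSO) and 7.19% (5-Aza) of the H3WT cells, and 8.74% and 16.98% of the H3R26C cells. Their median depth was 18980.0 to 34539.5 UMIs, above that of their libraries. Fosl1 stood at 57.2 and 65.9 CPM in cycling cells of H3WT and at 95.1 and 128 CPM in those of H3R26C, against 3.69, 6.85, 10.2 and 39.9 CPM in cells without cycling, muscle or adipocyte sets.

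Fos ran the other way, with 214, 189, 92.7 and 18.7 CPM in cycling cells and 972, 540, 493 and 54.4 CPM in cells without these sets. Jund was lower in cycling cells too, at 615, 697, 343 and 348 CPM against 1445, 1283, 818 and 574 CPM. Jun was lower in the cycling cells of H3WT (365 and 333 CPM against 581 and 418 CPM) but stood closer to the other cells in H3R26C (329 and 326 CPM against 359 and 292 CPM). Cells with at least 8 of 13 skeletal muscle markers existed only with 5-Aza. In these, Fos stood at 169 CPM in 155 H3WT cells and 19.1 CPM in 240 H3R26C cells, and Fosl2 at 49.0 and 42.1 CPM.

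Spp1, which encodes the secreted matrix protein osteopontin and is itself in the list of AP-1 targets, was used to divide the cells after its values had been seen. After thinning, cells with at least 10 Spp1 UMIs made up 2.75% (DMSO) and 11.4% (5-Aza) of H3WT, and 7.07% and 57.6% of H3R26C. In these cells Fosl1 stood at 36.4 CPM [30.0 to 43.6] and 37.4 CPM [33.9 to 41.2] in H3WT, which overlap, and at 88.6 CPM [82.0 to 95.5] and 75.2 CPM [73.1 to 77.3] in H3R26C. With 1 to 9 Spp1 UMIs it stood at 18.3 and 13.8 CPM in H3WT and at 43.9 and 44.4 CPM in H3R26C. In cells with no Spp1 UMI it stood at 1.90, 3.08, 4.74 and 12.7 CPM. In both groups of cells with Spp1 UMIs, Fosl1 with 5-Aza was thus below or close to its DMSO level in each genotype. It was above that level in cells with no Spp1 UMI. Fosl1 was higher in H3R26C than in H3WT at each amount of Spp1.

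Fos was lowest in H3R26C with 5-Aza at each amount of Spp1. With no Spp1 UMI it stood at 1023, 541, 512 and 69.3 CPM, with 1 to 9 UMIs at 687, 483, 314 and 52.2 CPM, and with at least 10 at 505, 360 [349 to 371], 210 [199.7 to 221] and 37.1 CPM. Fosl2 behaved otherwise. In H3R26C cells with at least 10 Spp1 UMIs it stood at 16.9 CPM with DMSO and 57.1 CPM with 5-Aza, and with none at 55.7 and 51.7 CPM.

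**Figure D5:**
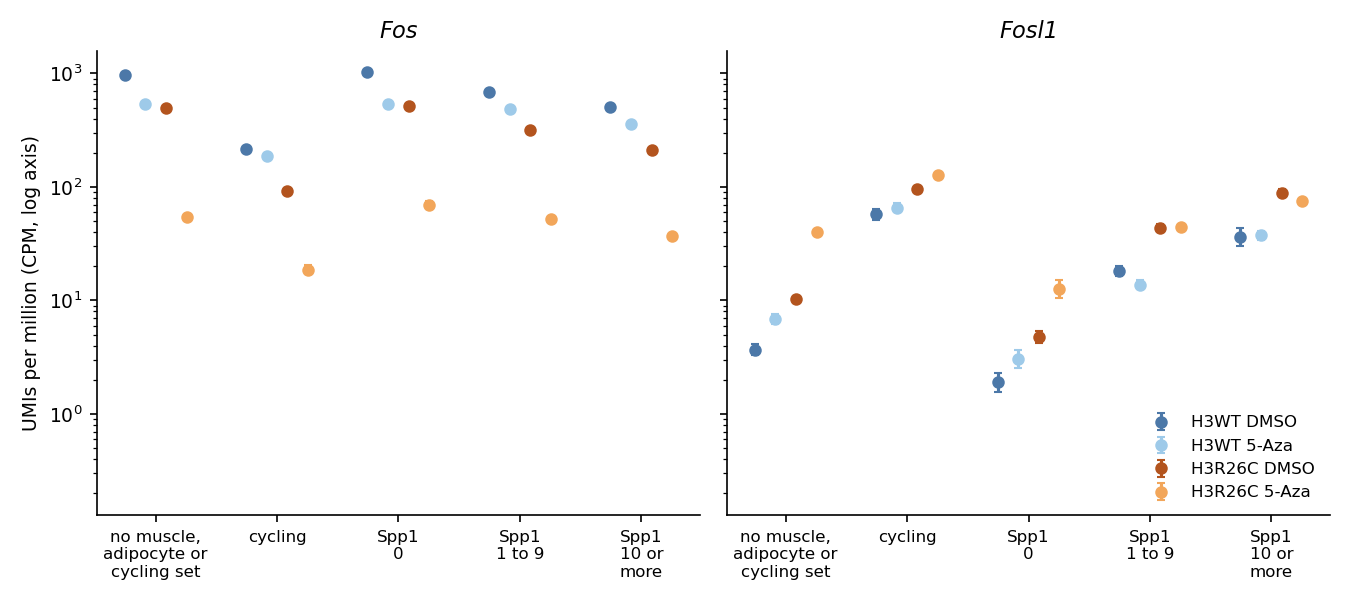
Fos (left) and Fosl1 (right) in CPM on a log axis, by library, in cells without muscle, adipocyte or cycling sets, in cycling cells and in cells with 0, 1 to 9 and at least 10 Spp1 UMIs, with 95% counting intervals. Fos is lowest in H3R26C with 5-Aza in each group of cells, and Fosl1 is higher in cycling cells and with more Spp1.

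Depth and mitochondrial share moved with the members. Among cells with 10000 to 20000 UMIs, Fos stood at 1222, 535, 542 and 52.3 CPM and Fosl1 at 1.47, 6.56, 8.47 and 46.0 CPM. The log2 ratio for 5-Aza in H3WT was then -1.19 for Fos and 1.61 for Fosl1, against -0.90 and 0.65 over all cells. It was -1.52 and 2.65 among cells with 20000 to 40000 UMIs, and -0.25 and 1.04 among those with 5000 to 10000 UMIs. H3WT with DMSO had 117 of the latter cells, with Fosl1 at 1.16 CPM, a value that rests on very few UMIs. Across these 3 ranges of depth the ratio of Fos lay between -3.53 and -3.03 for 5-Aza in H3R26C, between -1.62 and -0.53 for H3R26C with DMSO and between -3.63 and -3.31 for H3R26C with 5-Aza. That of Fosl1 lay between 1.38 and 2.85, between 1.06 and 2.89 and between 1.61 and 2.88. Fos kept its direction in each of these ranges, and so did Fosl1 at 10000 to 20000 and 20000 to 40000 UMIs. At 5000 to 10000 UMIs the direction of Fosl1 against H3WT with DMSO could not be read from so few UMIs. The sizes differed with depth, most of all for the genotypes with DMSO and for 5-Aza in H3WT. Few cells held over 40000 UMIs, and H3WT with 5-Aza had 6 and was not compared. There the ratio for 5-Aza in H3R26C (37 cells with DMSO and 23 with 5-Aza) was -3.57 for Fos and -0.18 for Fosl1, the other direction for Fosl1. For H3R26C with DMSO the ratios were -1.95 and 1.35.

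Cells with under 3% mitochondrial UMIs gave other values. Among these, Fosl1 stood at 21.8 CPM in H3WT with DMSO (776 cells) and 17.9 CPM in H3WT with 5-Aza (3300 cells), a log2 ratio of -0.27 and thus the other direction from all cells. Fos had a ratio of -0.44 there, and Junb (0.21) and Atf3 (0.33) also had the other sign. For H3R26C with DMSO, 0 members were then past 2-fold in either direction, with -0.75 for Fos and 0.49 for Fosl1. For 5-Aza in H3R26C the ratio of Fos was -3.13 and that of Fosl1 1.24, and for H3R26C with 5-Aza they were -3.44 and 2.00. With the limit of 3% and 10000 to 20000 UMIs together, the ratios for 5-Aza were -1.10 (Fos) and 1.89 (Fosl1) in H3WT and -3.24 and 2.09 in H3R26C. The part of depth and mitochondrial share in the differences between all cells was not tested.

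The genes around AP-1 were grouped in lists chosen by function. Of 15 kinases and factors upstream (the ERK, JNK and p38 pathways and the serum response factor group), 0 were past 2-fold in any comparison and the median log2 ratios were -0.07, -0.15, -0.0017 and -0.12. Among the largest differences with 5-Aza in H3WT, Mapk9 stood at 46.0 CPM with DMSO and 57.2 CPM with 5-Aza, and Elk4, a partner of serum response factor, at 45.6 and 36.8 CPM. Of 17 other bZIP partners, 13 could be compared, and 0, 2 (Maf and Atf5), 0 and 1 (Atf5) were at least 2-fold lower for 5-Aza in H3WT, 5-Aza in H3R26C, H3R26C with DMSO and H3R26C with 5-Aza, with 0 higher. Maf stood at 59.0, 36.3, 53.3 and 18.2 CPM, and Atf4, the driver of the amino acid response, at 249.2, 204, 220.2 and 183 CPM.

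Of 17 other early response genes, 2 (Nr4a1 and Egr3), 6, 1 (Egr3) and 5 were at least 2-fold lower and 0, 1 (Klf10), 0 and 0 higher in the same order of comparisons, and their summed level was 4412, 3152, 2663 and 1554 CPM. Nr4a1, an orphan nuclear receptor, stood at 251, 86.0, 145 and 31.9 CPM in H3WT with DMSO, H3WT with 5-Aza, H3R26C with DMSO and H3R26C with 5-Aza. Egr3 stood at 27.0, 10.1, 10.7 and 4.33 CPM, Egr2 at 23.5, 11.6, 12.3 and 4.16 CPM and Klf2 at 126, 69.6, 75.7 and 34.4 CPM. The order of the libraries in Nr4a1 is that of Fosb, and that in Egr3 and Egr2 has H3WT with 5-Aza and H3R26C with DMSO close together, as in Fos. The 5 that were lower in the last comparison were Egr1, Egr2, Egr3, Ier2 and Nr4a1.

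Of 11 feedback and RNA decay genes, 10 could be compared for 5-Aza in H3WT and all 11 elsewhere. In the same order 1 (Btg2), 2 (Btg2 and Zfp36), 0 and 3 (Btg2, Zfp36 and Dusp1) were lower and 0, 1, 0 and 1 (Dusp6) higher. Zfp36, which destabilises AU-rich mRNAs, stood at 415, 390.2, 278 and 61.0 CPM. Btg2, which slows the cell cycle and promotes mRNA decay, stood at 179, 67.2, 106 and 19.9 CPM. Dusp6, a phosphatase made in response to ERK activity, ran upward, at 4.79, 6.86, 6.76 and 21.5 CPM. Dusp1, which acts on JNK and p38, followed genotype, at 221, 181, 115 and 79.7 CPM, and Dusp5 stood at 20.2, 11.9, 11.6 and 10.9 CPM.

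The stress genes that are known to move with Atf3 did not share 1 pattern. Of 10, 0, 1, 0 and 1 (Ppp1r15a) were lower and 0, 4 (Asns, Trib3, Xbp1 and Chac1), 0 and 0 higher. Asns, asparagine synthetase, stood at 27.4, 36.0, 20.3 and 61.7 CPM, Trib3 at 6.05, 11.7, 6.28 and 17.6 CPM and Xbp1 at 55.4, 81.8, 54.1 and 118 CPM, highest in the library where Atf3 was lowest. Ddit3, which encodes the stress factor CHOP, stood at 134.5, 104, 97.0 and 82.3 CPM, the order of libraries of Atf3, and Ddit3, Sesn2 and Ppp1r15a were below 0 on the log2 scale in all 4 comparisons. In H3R26C against H3WT with DMSO, 9 of the 10 were below 0. Ppp1r15a, which is both a stress and an early response gene, stood at 152, 90.3, 112 and 42.5 CPM. Of 8 heat shock genes, 6 or 7 could be compared, and 0 were lower in any comparison and 0, 1, 0 and 1 (Hspb1) higher. Dnajb1, a heat shock co-chaperone, stood at 125, 70.0, 63.8 and 44.1 CPM and Hspd1 at 213, 243, 229.9 and 228 CPM.

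Of 17 genes known as AP-1 targets, 16, 16, 15 and 16 could be compared, 1 was lower for 5-Aza in each genotype (Mmp9) and 1 in H3R26C with 5-Aza (Hmox1), and 2 (Mmp3 and Spp1), 8, 2 (Mmp9 and Ccl2) and 8 were higher. Their summed level was 854, 1523, 1195 and 5870 CPM. Spp1 supplied 275, 847, 476 and 4905 CPM of it. Mmp3, a matrix metalloproteinase, stood at 0.702, 7.59, 1.89 and 17.4 CPM, and Plau, urokinase, at 6.08, 12.9, 11.5 and 18.6 CPM. Mmp9 stood at 3.83, 0.996, 17.6 and 3.90 CPM.

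Markers of other cells and states moved with the same libraries. All 13 skeletal muscle markers were at least 2-fold higher with 5-Aza in both genotypes (summed 23.7, 2062, 16.8 and 2581 CPM), 7 and 9 of 9 interferon markers were higher with 5-Aza in H3WT and H3R26C (summed 174, 413, 282 and 1962 CPM), and the log2 ratios of all 10 cycling markers were above 0 in every comparison (summed 343, 554, 652 and 1045 CPM). Adipocyte markers summed to 207, 422, 278 and 244 CPM, mesenchymal markers to 14589, 14288, 13860.1 and 14916 CPM and nuclear-retained RNAs to 10308, 11786.5, 8773 and 10228 CPM. In H3WT with DMSO, Ptprc, Hbb-bs and Cd3e (blood) and Emcn (endothelial) were at 0. The other markers of these lists were above 0 there. Cd68 and Lyz2 (blood) stood at 4.98 and 1.93 CPM, and Tek, Pecam1, Cdh5 and Kdr (endothelial) at 4.37, 0.276, 0.0230 and 0.0115 CPM. Endothelial markers summed to 4.69, 7.20, 5.42 and 10.6 CPM and blood markers to 6.92, 11.5, 4.62 and 13.9 CPM. In cells without muscle, adipocyte or cycling sets the log2 ratio of Fos for 5-Aza in H3R26C was -3.16, against -3.26 in all cells. In cells without interferon sets as well, Fos stood at 48.9 CPM and Fosl1 at 54.8 CPM in H3R26C with 5-Aza. The part of these states in the other differences was not tested.

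The genes whose thinned level went most with the number of members found in a cell were taken from 5604 genes with at least 20 CPM in every library, by the mean over libraries of the Pearson correlation across cells. Among the first 10 were Ier2 (0.48), Egr1 (0.45), Zfp36 (0.41), Ccn1 (0.36), Nr4a1 (0.30), Ier3 (0.25), Dusp1 (0.23), Socs3 (0.21) and Ppp1r15a (0.20), and the median gene was at -0.00063. These are descriptions of cells within 4 libraries, and the cells were thinned to the same depth. For Ier2 the correlation was 0.55 (DMSO) and 0.52 (5-Aza) in H3WT, and 0.54 and 0.30 in H3R26C. The lowest value was in the library where the members together were lowest. Ier2 was lowest there too, at 304 CPM against 719 to 1424 CPM in the others. Such a correlation falls as counts become sparser, so its size cannot be compared between libraries.

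Each member was also set against the number of the other members in a cell. Fos gave 0.54, 0.44, 0.47 and 0.16, Junb 0.45, 0.46, 0.43 and 0.17, and Jun 0.39, 0.32, 0.25 and 0.12. Fosl2 gave 0.02 to 0.10 and Fosl1 -0.09 to -0.01, values too near 0 in sparse counts to read an order from. In H3R26C with 5-Aza, where more cells held Fosl1 than in any other library, the genes nearest to it were Hmga1 (0.39), which encodes a chromatin protein of growing cells, Lgals3 (0.26), Tnfrsf12a (0.26) and Ccnd1 (0.25).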

How the data were processed

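Single-cell RNA sequencing counts of 4 libraries were analysed (H3WT and H3R26C, each with DMSO or 5-Aza, 1 library per condition). The authors deposited filtered matrices of UMI counts per gene and barcode, as whole numbers that were not normalized, made with Cell Ranger 6 (6.1.0 in the file headers) on mm10 and read into Seurat 4. Submitters' processing notes name no cell filter, and that of the study's methods was applied to the deposited counts (at least 5000 UMIs, at least 1500 genes, at most 20% mitochondrial UMIs). Doublets were not removed, and leaving out the 5% of cells with most UMIs stands in as an alternative.

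Counts were summed per library and scaled to CPM. Log2 ratios used a pseudocount of 1 CPM, all genes with at least 1 CPM in the higher library, and 2-fold as the limit. With 1 library per condition no test was run and no p-value is given. Intervals are exact Poisson or Clopper-Pearson limits at 95%, and those of ratios are normal approximations from counting error; a count of 0 allows 3 counts, or 0.0271 to 0.0357 CPM. Cells were thinned to 5000 UMIs with a fixed seed for shares, co-detection and correlations, and cell sets needed at least 3 markers of a list in the thinned cell (8 for the strict muscle set).

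The members, the lists (other bZIP partners, upstream kinases and factors, early response, feedback and RNA decay, stress, heat shock, AP-1 targets, nuclear-retained RNA, and markers of mesenchymal, muscle, adipocyte, cycling, interferon, endothelial and blood cells) and the comparisons were chosen with earlier results of these data known. Besides the 8 members, the text names from each list up to 4 genes with the largest log2 ratio for 5-Aza in H3WT at 10 CPM or more in any library, those past 2-fold where a count is 5 or fewer, and the 10 genes that follow the members most at 20 CPM or more in every library. Some items are not reported here. The genes of a small count and those nearest to Fosl1 were chosen after their values were seen, as were the division by Spp1, the depth and mitochondrial strata and the left-out barcodes. Ddit3 has 2 identifiers, of which the first was used. Gene models are GENCODE M21 (99.6% of 32285 identifiers matched), and promoters are RefSeq GRCm38.p6, with no entry used for Fosl1. Scripts used Python 3.11.15, numpy 2.4.6, scipy 1.17.1, pandas 2.3.3 and matplotlib 3.10.9 and were tested on simulated data.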

Additional observations from a re-analysis of the deposited data

Results flagged for a closer look

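Fosl2 had 5-Aza ratios of opposite sign in the genotypes, -0.39 in H3WT and 0.25 in H3R26C on the log2 scale, a difference of 0.65 [0.57 to 0.72]. The difference itself was not tested, since each condition has 1 library, and the bracket covers counting error only. The level was 74.7 CPM and 56.8 CPM in H3WT and 46.4 CPM and 55.6 CPM in H3R26C, with DMSO and 5-Aza. The ratio in H3R26C differed between groups of cells. It was 0.046, 0.23 and 0.054 with 5000 to 10000, 10000 to 20000 and 20000 to 40000 UMIs. With no, 1 to 9 and at least 10 Spp1 UMIs it was -0.11, 0.77 and 1.70.

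Barcodes left out by the cell filter held a median of 705 to 978 UMIs and were used in no comparison. Fosl1 was present in them, and above its DMSO level in both genotypes after 5-Aza, at 5.58 CPM [4.15 to 7.33] against 0.656 CPM [0.0795 to 2.37] in H3WT and 36.9 CPM [32.5 to 41.6] against 9.90 CPM [6.05 to 15.3] in H3R26C. In H3R26C, Fosl2 stood at 69.9 CPM [63.8 to 76.4] after 5-Aza against 38.1 CPM [30.1 to 47.6] with DMSO in these barcodes. Atf3 stood at 17.4 CPM [14.4 to 20.7] against 8.42 CPM [4.90 to 13.5], which is the opposite direction from the kept cells (9.01 against 14.0 CPM). Fos was lower in the left-out barcodes than in the kept cells of every library, at 294, 105, 181 and 19.9 CPM in H3WT with DMSO, H3WT with 5-Aza, H3R26C with DMSO and H3R26C with 5-Aza.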

How the results depend on the processing

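No paired analysis was possible because the labels give a single library per group and no number that links libraries. Every one of the 15 member ratios past 2-fold kept its sign under all 15 alternatives (225 values), but 5 of them ended below 2-fold under some. Some groups of cells that are not among these alternatives gave the other sign. Fosl1 for 5-Aza in H3R26C was -0.23 with at least 10 Spp1 UMIs, and Atf3 for H3R26C with 5-Aza was 0.39 in the strict muscle set. For H3R26C with DMSO, Fos was -0.98 without the muscle, adipocyte and cycling sets and without cycling cells alone, and Atf3 was -0.93 with a pseudocount of 5 CPM. There, with under 3% mitochondrial UMIs, Fos (-0.75), Fosb (-0.91), Atf3 (-0.77) and Fosl1 (0.49) were not past 2-fold, and with 5000 to 10000 UMIs Fos (-0.53), Fosb (-0.54) and Atf3 (-0.84) were not, so the count of members lower was 0 in place of 3 in both and that of members higher 0 in place of 1 in the first. The count lower was 5 with 20000 to 40000 UMIs. Junb for 5-Aza in H3R26C was -0.98 with under 3% mitochondrial UMIs, -0.85 with 5000 to 10000 UMIs and just short of 2-fold with 20000 to 40000 UMIs. Of 255 values for the other 17 ratios, 12 had the other sign: 6 of Fosl2 for H3R26C with 5-Aza, 3 of Atf3 and 2 of Junb for 5-Aza, and Fosl1 for 5-Aza in H3WT with under 3% mitochondrial UMIs (-0.27). The count of members at least 2-fold lower with 5-Aza in H3WT was 2 in place of 1 with 10000 to 20000 UMIs, with or without the limit of 3%, and with 20000 to 40000 UMIs, where Fos passed the limit. The count higher was 1 in place of 0 under these 3, with 5000 to 10000 UMIs and without the 5% of cells with most UMIs, through Fosl1. With 5000 to 10000 UMIs that call rests on very few Fosl1 UMIs in H3WT with DMSO (1.16 CPM). The limit of 3%, the other depth ranges and leaving out cycling cells alone were chosen after seeing the data. Fosl1 for 5-Aza in H3WT ranged from -0.27 to 2.65 on the log2 scale. Median-of-ratios scaling moved the median of all genes by -0.05 to 0.02.

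With a minimum of 10 CPM the genes at least 2-fold lower and higher with 5-Aza in H3WT numbered 22 and 203, those higher with 5-Aza in H3R26C 476, those lower and higher in H3R26C with DMSO 38 and 104, and those with 5-Aza 223 and 323. The share of cells with at least 4 members, in H3WT with DMSO, H3WT with 5-Aza, H3R26C with DMSO and H3R26C with 5-Aza, was 56.0%, 35.0%, 29.4% and 8.61% when thinned to 3000 UMIs, 93.3%, 77.2%, 79.5% and 55.3% without thinning, and 72.5%, 54.7%, 48.8% and 20.6% without the muscle, adipocyte and cycling sets, since a share of cells depends on depth. Of 560 co-detection ratios, 502 stayed within the counting interval. Of the member log2 ratios under the alternatives, 241 stayed within it and 239 did not. For the share of cells with a UMI of a member, 71 values did and 89 did not. The brackets on ratios and shares thus cover less than the spread between these alternatives. By Spearman correlation the same 10 genes followed the members. The absence of replicates limits every difference between conditions.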
